A study of Homo sapiens with 12 samples.

Results

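The MYC network was followed in 10 genes out of 28512 genes with an unambiguous symbol. They were MYC itself, CCAT1 and PVT1, which are long noncoding RNAs made from its chromosomal neighbourhood, and MAX, MXD1, MXD3, MXD4, MXI1, MNT and MLX, which encode proteins of the MAX dimerization network. The genes were taken by symbol, and all 10 were among the 14232 genes that passed the filter on low values and were tested. RNA was sequenced from HCC1806, SUM159 and MDAMB231, 3 lines of triple-negative breast cancer, each treated for 72 h with JQ1 plus GSK2801, with JQ1, with GSK2801 or with the vehicle DMSO. JQ1 blocks the bromodomains of the BET proteins, which bind acetylated histones, and it was given at 500 nM to HCC1806, 300 nM to SUM159 and 100 nM to MDAMB231. GSK2801 blocks the bromodomains of BAZ2A and BAZ2B and was given at 10 µM to each line. Each line and treatment had 1 library, so each treatment had n = 3 lines and no culture of a line was repeated. The p-values of treatment comparisons measure the spread between lines. Those of comparisons between lines rest on other spreads, given below. HCC1806 was also grown in a different medium, so its line, JQ1 dose and medium cannot be told apart.

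MYC is a transcription factor that pairs with MAX, binds E-box sequences and raises the transcription of genes for growth and ribosome assembly. The MXD proteins, MXI1 and MNT also pair with MAX, take the same sites and repress them through SIN3 and histone deacetylases, so the network holds activators and repressors that share 1 partner. MLX is a parallel partner that pairs with MXD1, MXD4 and MNT and with the glucose-sensing activators MondoA (gene MLXIP) and ChREBP (gene MLXIPL). CCAT1 and PVT1 are known from cancers in which enhancers around MYC are active, and BET inhibitors are widely known for lowering MYC in blood cancers.

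Depth ran from 24200000 to 46800000 estimated reads in the 12 libraries, with 15743 to 16774 genes detected in each. Values below are the deposited scaled reads, in which the 75th percentile of the values above 0 is the same in every library. Changes are log2 differences of (scaled reads + 1) averaged over the lines, with the standard error (SE) of limma, and a change was called at a Benjamini-Hochberg adjusted p under 0.05 over all 14232 genes. ESR1 stayed at or below 138 and PGR at or below 12.1 scaled reads, while ERBB2 lay between 1749 and 6456. Epithelial and basal markers, 6 genes, summed to 50887 to 73473 in HCC1806, 225 to 1959 in SUM159 and 137 to 396 in MDAMB231, and the 8 blood and endothelial markers summed to at most 1340. None of the marker genes tested, 5 epithelial, 4 mesenchymal and 3 blood and endothelial, passed with JQ1 against DMSO. All 5 epithelial changes were below 0 there, with a median log2 change of -1.14, so the markers were not shown to be level. With the combination 1 of the 5 epithelial markers fell against DMSO and 1 against GSK2801, where 19.8% and 17.2% of all genes tested fell. HEXIM1, whose protein sequesters P-TEFb and which commonly serves as a readout of BET inhibition, read 8566, 6270, 2532 and 2510 in HCC1806 with the combination, JQ1, GSK2801 and DMSO. Its change with JQ1 did not pass for a difference between HCC1806 and the other lines (0.14 ± 0.18 SE, limma adjusted p = 0.593). In such bulk RNA a smaller share of cells that carry a transcript and less transcript per cell cannot be told apart.

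CACGTG, the canonical E-box that MYC-MAX, MXD-MAX and MLX dimers can bind, was sought in the 250 bases before the RefSeq start sites of the members on GRCh38.p14. It reads the same on both strands. The table of start sites held 7 of the 10 members, in 10 windows, and 3 of the 10 windows carried the motif, 1 each for 3 genes, while 6.322% of all 34943 windows did. The 3 windows are shown because 2 of them belong to members that changed with JQ1 in opposite directions. Each runs 5′ to 3′ on the strand of its gene, with CACGTG in capitals. MXD4 lies at chr4:2262110-2262359 on the minus strand, MNT at chr17:2401061-2401310 on the minus strand and MLX at chr17:42566850-42567099 on the plus strand.
MXD4: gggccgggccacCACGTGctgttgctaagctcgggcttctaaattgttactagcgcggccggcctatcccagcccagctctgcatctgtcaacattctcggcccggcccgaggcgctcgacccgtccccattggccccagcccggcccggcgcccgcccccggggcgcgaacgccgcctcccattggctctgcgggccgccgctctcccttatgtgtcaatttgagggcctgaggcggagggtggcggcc
MNT: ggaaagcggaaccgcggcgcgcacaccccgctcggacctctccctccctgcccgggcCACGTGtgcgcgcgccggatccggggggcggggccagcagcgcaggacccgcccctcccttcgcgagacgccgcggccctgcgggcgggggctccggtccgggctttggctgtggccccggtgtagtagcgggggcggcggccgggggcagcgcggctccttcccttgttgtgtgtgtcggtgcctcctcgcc
MLX: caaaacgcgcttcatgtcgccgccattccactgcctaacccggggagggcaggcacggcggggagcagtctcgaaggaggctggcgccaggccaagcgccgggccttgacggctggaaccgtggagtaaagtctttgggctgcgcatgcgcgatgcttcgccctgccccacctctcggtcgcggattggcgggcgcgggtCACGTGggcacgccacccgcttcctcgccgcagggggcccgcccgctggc
The motif begins 238 bases before the start in MXD4, 193 before it in MNT and 50 before it in MLX. A match in letters is a description of the window, and no binding was measured.

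MYC was lower with JQ1 in HCC1806, to 0.322 of the DMSO value, and not clearly so in the other lines. In HCC1806 it read 2600 scaled reads with JQ1 plus GSK2801 and 2389 with JQ1, against 8906 with GSK2801 and 7428 with DMSO. In SUM159 it read 7079 with the combination and 8028 with JQ1, against 8959 with GSK2801 and 7482 with DMSO. In MDAMB231 it read 8432 and 6289 with the combination and JQ1, against 7916 and 6825 with GSK2801 and DMSO. Libraries with and without JQ1 did not overlap in HCC1806 and overlapped in both other lines. Taken as the mean of the effect with and without GSK2801, the log2 effect of JQ1 on MYC was -1.71 in HCC1806, a 3.26-fold fall, -0.12 in SUM159 and -0.01 in MDAMB231. The difference between HCC1806 and the mean of the others was -1.64 ± 0.14 (SE, limma adjusted p = 7.7e-04), and it passed in each of the 12 fits that left out 1 library of HCC1806, SUM159 or MDAMB231, with adjusted p between 0.00383 and 0.0499. Over the 3 lines together MYC did not pass, at -0.55 ± 0.38 with JQ1 (limma adjusted p = 0.323) and -0.43 ± 0.38 with the combination (limma adjusted p = 0.406). A p of that kind does not show that MYC was level in SUM159 and MDAMB231, where each treatment had 1 library.

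**Figure D1:**
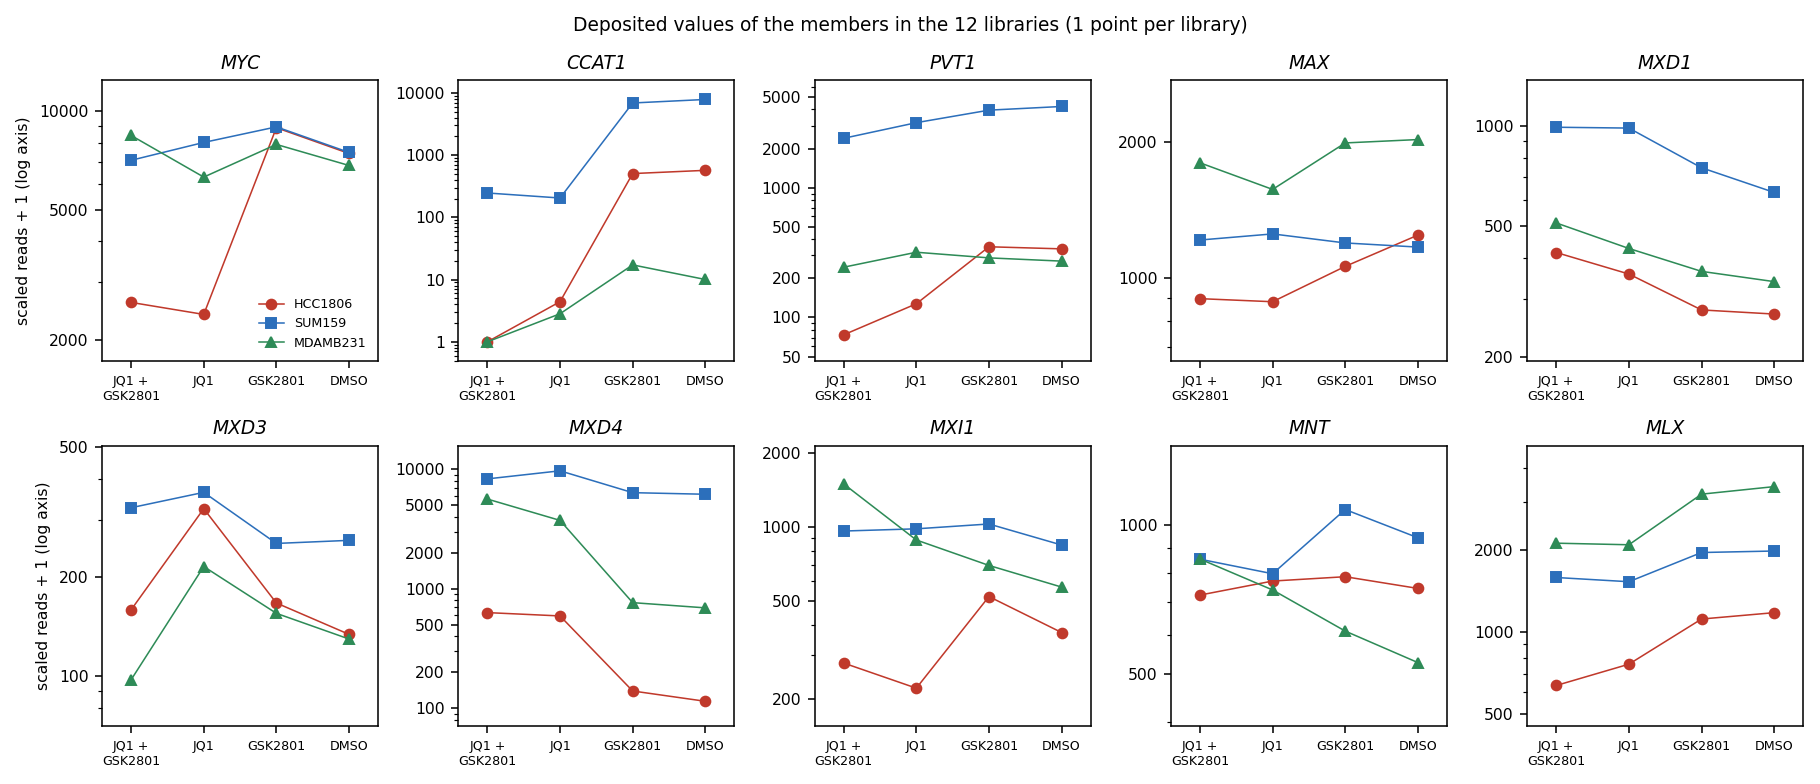
Scaled reads + 1 (log axis, its range set per panel) of each of the 10 genes in the 12 libraries, by treatment from JQ1 plus GSK2801 on the left to DMSO on the right. Each point is 1 library and thin lines only join the libraries of a line. MYC drops to 2600 and 2389 in the HCC1806 libraries with JQ1, CCAT1 drops in every line, MXD4 is higher and MLX lower with JQ1 in every line.

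CCAT1, the long noncoding RNA 522 kb upstream of the MYC start on chromosome 8 (127207382 to 127219268, RefSeq on GRCh38.p14), fell furthest. In SUM159 it read 246 with the combination and 204 with JQ1, against 6899 with GSK2801 and 7855 with DMSO. In HCC1806 it was listed at 0 with the combination and read 3.42 with JQ1, against 505 with GSK2801 and 569 with DMSO. In MDAMB231 it was listed at 0 with the combination and read 1.83 with JQ1, against 16.2 with GSK2801 and 9.04 with DMSO, which is a matter of a few reads. The libraries with JQ1 lay below those without it in each of the 3 lines. The value with JQ1 was 0.0260 of that with DMSO in SUM159, the only line in which all 4 libraries held more than a few reads. Over the lines the log2 change was -4.70 ± 1.06 with JQ1 (limma adjusted p = 0.0144) and -5.83 ± 1.06 with the combination (limma adjusted p = 0.00361). These folds depend on the 1 that was added, and with 5 added the change with JQ1 was -4.12 (limma adjusted p = 0.0181). The call with JQ1 was lost without SUM159 (-4.42, limma adjusted p = 0.136), without HCC1806 (-3.55, limma adjusted p = 0.0789) and without the JQ1 library of SUM159 or either the DMSO or JQ1 library of HCC1806 (limma adjusted p = 0.0559 to 0.0702).

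PVT1, the long noncoding RNA gene that starts just downstream of MYC (chromosome 8, 127794533 to 128101253, GENCODE v29 on GRCh38), was lower with JQ1 in HCC1806 and SUM159. In HCC1806 it read 72.5 with the combination and 126 with JQ1, against 349 with GSK2801 and 336 with DMSO. In SUM159, where it was most abundant, it read 2396 with the combination and 3161 with JQ1, against 3946 with GSK2801 and 4212 with DMSO. In MDAMB231 it read 243 and 317 with the combination and JQ1, against 287 and 271 with GSK2801 and DMSO, and the groups overlapped there. The effect of JQ1 differed between HCC1806 and the mean of the other lines by -1.54 ± 0.26 (SE, limma adjusted p = 0.00692). That difference fell to -1.12 without the GSK2801 or the combination library of HCC1806 (limma adjusted p = 0.0850 and 0.0836). Over the 3 lines PVT1 did not pass with JQ1 (-0.53 ± 0.38, limma adjusted p = 0.339) or with the combination (-1.06 ± 0.38, limma adjusted p = 0.0575). The combination passed without MDAMB231 (-1.51, limma adjusted p = 0.0497), without its DMSO library (-1.34, limma adjusted p = 0.0479) and without its combination library (-1.37, limma adjusted p = 0.0368).

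The same neighbourhood was read further out in 16 other genes within about 3 Mb of MYC, of which 10 were tested. PCAT1, CASC11, CCAT2, CCDC26 and MIR1208 were below the filter, and PRNCR1 was not matched by symbol. With JQ1, 5 of the 10 fell and none rose, with a median log2 change of -0.44 against -0.08 over all genes tested, where 13.1% fell and 9.52% rose. GSDMC, a gasdermin family gene 2032 kb downstream, fell most (-3.42 ± 0.87, limma adjusted p = 0.0238), and CASC19 (-2.59 ± 0.81, limma adjusted p = 0.0482) and CASC8 (-1.75 ± 0.48, limma adjusted p = 0.0319), noncoding RNAs upstream of MYC, fell with it. In SUM159 GSDMC read 1.89 and 2.12 with the combination and JQ1, against 20.1 and 56.3 with GSK2801 and DMSO, and in HCC1806 1.07 and 2.28, against 66.8 and 124. The interval of CCAT1 lies within that of CASC19, so their reads may not be separable, and CASC19 averaged 21.95 scaled reads. ASAP1, a regulator of ARF GTPases, and FAM49B fell by 0.75 and 0.43 on the log2 scale, while NSMCE2 (-0.46), TRIB1 (-0.39), FAM84B (-0.17), CASC21 (-0.09) and POU5F1B (0.52) did not pass. With the combination against DMSO 5 of the 10 fell as well, GSDMC (-3.68), CASC8 (-2.36), CASC19 (-2.35), ASAP1 (-0.95) and FAM49B (-0.48). Over all genes tested 19.8% fell and 15% rose with the combination. The count of 5 with JQ1 was 4 after quantile normalization, 4 without MDAMB231, 1 without SUM159 or without HCC1806, and 0 with only the libraries compared, and with the combination it was 4 after TMM rescaling, 3 without SUM159, 2 without HCC1806 and 1 with only the libraries compared. In the test between lines the effect of JQ1 was lower in HCC1806 than in the others for GSDMC (-2.65), CASC8 (-1.21), TRIB1 (-0.92) and ASAP1 (-0.38), and higher for POU5F1B (2.12) and FAM84B (0.69). Over all genes tested 10.6% passed there as lower, 14.5% as higher and 25.1% in all.

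**Figure D2:**
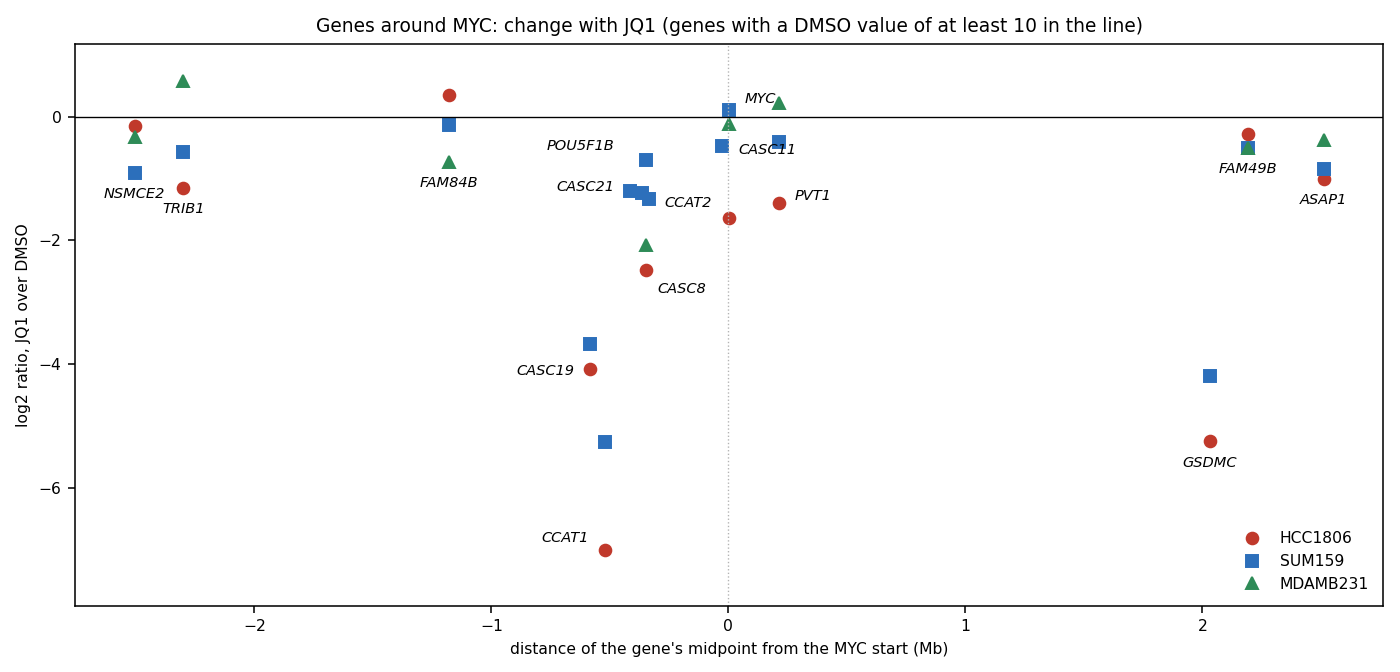
Log2 ratio of JQ1 over DMSO in each line, against the distance in Mb of the gene's midpoint from the MYC start, for MYC, CCAT1, PVT1 and other genes of the neighbourhood with a DMSO value of at least 10 in that line. Each point is 1 gene in 1 line. CCAT1, CASC19 and GSDMC are lowest in HCC1806 and SUM159, while MYC is low in HCC1806 and near 0 in the other lines.

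Among the repressor partners, MXD1 and MXD4 were higher with JQ1 in every line. With JQ1 against DMSO, 3 of the 10 network members rose (MXD1, MXD3 and MXD4) and 2 fell (CCAT1 and MLX), where 9.52% of all genes tested rose, 13.1% fell and 22.6% passed in either direction. Scaling moves that background: after TMM rescaling 1660 genes rose and 1521 fell, as deposited 1355 rose and 1868 fell, and the members' count was 3 and 2 under both. With the combination against DMSO, 2 members rose (MXD1 and MXD4) and 2 fell (CCAT1 and MLX), where 15% of all genes tested rose, 19.8% fell and 34.8% passed in all. With the combination against GSK2801, MXD1 and MXD4 rose and CCAT1 and MLX fell, where 11.8% of all genes tested rose, 17.2% fell and 29% passed in all. That comparison shares no library with JQ1 against DMSO. It does share the lines, their JQ1 doses and the estimate of the spread, so it is not an independent repeat. After TMM rescaling 2447 genes rose and 2491 fell with the combination against DMSO, and 1994 rose and 2107 fell against GSK2801.

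MXD4, a MAX-binding repressor linked to the exit from the cell cycle (chromosome 4, 2247432 to 2262294), rose most. In MDAMB231 it read 5610 with the combination and 3720 with JQ1, against 762 with GSK2801 and 690 with DMSO. In HCC1806 it read 629 and 590, against 138 and 113. In SUM159, where it stood highest without JQ1, it read 8274 and 9667, against 6346 and 6155. The libraries with JQ1 were above those without it in each line, and the values with JQ1 alone were 5.39 times those with DMSO in MDAMB231, 5.21 times in HCC1806 and 1.57 times in SUM159. The mean log2 change was 1.82 ± 0.46 with JQ1 (limma adjusted p = 0.0228), 1.97 ± 0.46 with the combination (limma adjusted p = 0.0108) and 1.81 ± 0.46 for the combination against GSK2801 (limma adjusted p = 0.0183). The call with JQ1 was lost without MDAMB231 (1.51, limma adjusted p = 0.126), without HCC1806 (1.54, limma adjusted p = 0.235) and in each fit that left out 1 of the DMSO and JQ1 libraries of these lines (limma adjusted p = 0.0866 to 0.0952). The effect of JQ1 was 0.69 ± 0.15 higher in HCC1806 than in the mean of the others (limma adjusted p = 0.0186), but against MDAMB231 alone the difference was -0.38 (limma adjusted p = 0.215), so the direction rests on SUM159. It missed the threshold in each of the 8 fits that left out 1 library of SUM159 or HCC1806 (limma adjusted p = 0.0513 to 0.170).

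MXD1, a founding member of these antagonists (chromosome 2, 69897688 to 69942945), rose by a similar amount in each line. It read 414 and 356 in HCC1806 with the combination and JQ1, against 277 and 269 with GSK2801 and DMSO. In SUM159 it read 992 and 986, against 748 and 630. In MDAMB231 it read 509 and 426, against 363 and 338. None of the lines showed overlap, and the log2 effects of JQ1 were 0.49 in HCC1806, 0.53 in SUM159 and 0.41 in MDAMB231, with 0.02 ± 0.16 between HCC1806 and the mean of the others (limma adjusted p = 0.931). Over the lines MXD1 rose by 0.46 ± 0.12 with JQ1 (limma adjusted p = 0.0223) and 0.62 ± 0.12 with the combination (limma adjusted p = 0.00407). The call with JQ1 was lost in each of the 9 fits that left out a line or a JQ1 or DMSO library (change 0.37 to 0.52, limma adjusted p = 0.0521 to 0.162). Its exons overlap those of SNRNP27 on the same strand, which changed by -0.09 with JQ1 and did not pass.

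MXD3, a MAX-binding repressor seen in dividing cells, rose with JQ1 alone. It read 323 in HCC1806, 362 in SUM159 and 215 in MDAMB231 with JQ1, against 133, 258 and 129 with DMSO (0.83 ± 0.24, limma adjusted p = 0.0352). With the combination it read 158 in HCC1806, 325 in SUM159 and 96.4 in MDAMB231, and neither the combination against DMSO (0.06 ± 0.24, limma adjusted p = 0.876) nor the combination against JQ1 (-0.78 ± 0.24, limma adjusted p = 0.557) passed. The call with JQ1 alone was lost in 8 of the 9 fits that left out a line or a library, the exception being that without the JQ1 library of SUM159. MXD3 exons overlap those of PRELID1 on the opposite strand, a more abundant gene that averaged 3952 scaled reads and fell by 0.59 on the log2 scale with JQ1, and those of RAB24 on the same strand. Whether the libraries kept strand is open in the labels, so MXD3 values may hold PRELID1 reads.

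MXI1, another MAX-binding repressor, went in different directions in different lines. In HCC1806 it read 278 with the combination and 220 with JQ1, against 519 with GSK2801 and 371 with DMSO. In MDAMB231 it read 1491 and 882, against 695 and 567, and in SUM159 959 and 979, against 1024 and 841. The libraries with JQ1 were lower in HCC1806, higher in MDAMB231 and overlapping in SUM159. The effect of JQ1 was thus -0.82 in HCC1806, 0.87 in MDAMB231 and 0.06 in SUM159, and the difference of HCC1806 from the mean of the others was -1.29 ± 0.18 (SE, limma adjusted p = 0.00347). It missed the threshold in each of the 4 fits that left out 1 library of HCC1806 (-1.36 to -1.22, limma adjusted p = 0.0597 to 0.0771). The mean over lines was 0.03 ± 0.36 (limma adjusted p = 0.953).

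MNT, a broadly expressed repressor that pairs with MAX and MLX, and MAX, the shared partner, did not pass in any treatment comparison. MNT read 721 to 785 in HCC1806, where libraries with and without JQ1 overlapped. It was lower with JQ1 in SUM159, at 796 to 852, against 942 to 1075 without it. In MDAMB231 MNT was higher with JQ1, at 738 to 853, against 526 to 609. The mean change of MNT with JQ1 was 0.10 ± 0.18 (limma adjusted p = 0.725). MAX read 897 and 883 in HCC1806 with the combination and JQ1, against 1058 and 1242 with GSK2801 and DMSO. It was also lower with JQ1 in MDAMB231, at 1800 and 1570, against 1993 and 2028, and slightly higher in SUM159, at 1211 and 1250, against 1193 and 1168. Its mean change with JQ1 was -0.25 ± 0.13 (limma adjusted p = 0.174).

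**Figure D3:**
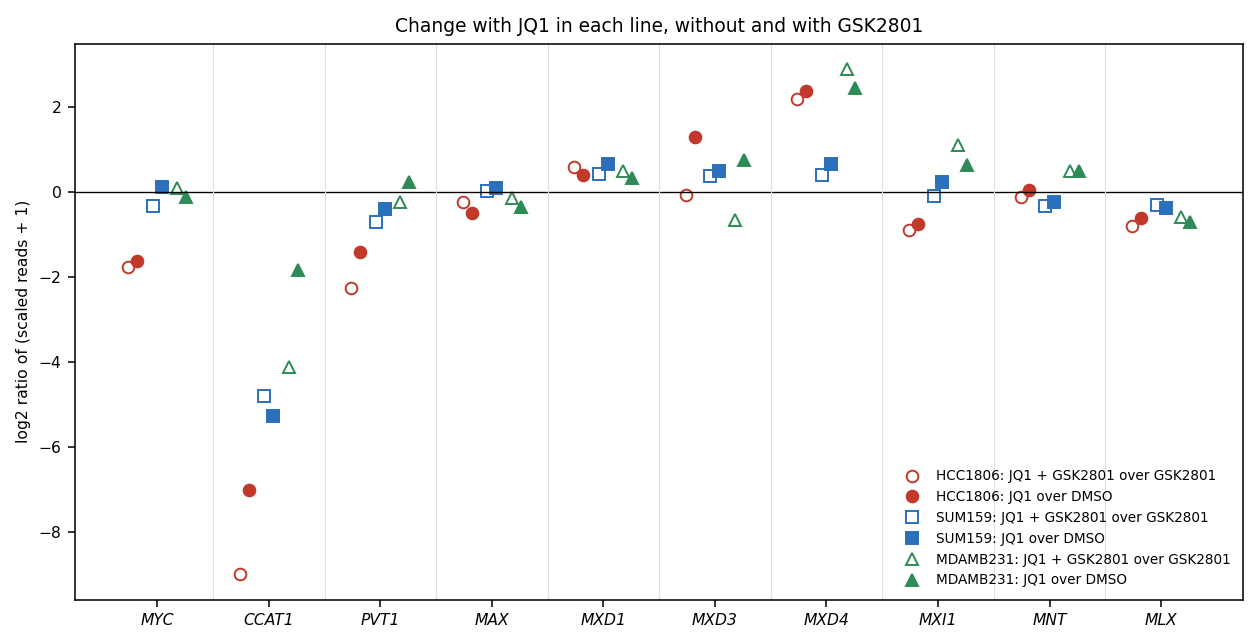
Log2 ratio of (scaled reads + 1) for each gene in each line, with open markers for JQ1 plus GSK2801 over GSK2801 and filled markers for JQ1 over DMSO. Each marker is a ratio of 2 libraries and carries no error bar. MXD1 and MXD4 lie above 0 and CCAT1 and MLX below 0 in all 3 lines by both readings, MYC lies below -1.5 in HCC1806 only, and the readings of MXD3 differ most in HCC1806 and MDAMB231.

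Levels of different genes were compared per kilobase of merged exons (GENCODE v29). MYC had the highest level per kilobase of the 8 coding members in each of the 12 libraries, with a median of 2484 scaled reads per kilobase, also when the longest transcript was used for length. MAX had a median of 277, MLX 415, MXD4 318, MXI1 167, MNT 89.1, MXD1 66.1 and MXD3 36.9 scaled reads per kilobase. MXD4 ran from 16.0 to 1370 scaled reads per kilobase. The summed level per kilobase of MXD1, MXD3, MXD4, MXI1 and MNT, divided by that of MYC, was 0.379 and 0.425 in HCC1806 with the combination and JQ1, against 0.100 and 0.101 with GSK2801 and DMSO. In MDAMB231 the quotient was 0.468 and 0.435, against 0.158 and 0.158, and in SUM159 it was 0.720 and 0.710, against 0.473 and 0.526. The quotient was thus higher with JQ1 in each line. In HCC1806 the sum was 338 with JQ1 and 250 with DMSO, while MYC was 796 and 2475 scaled reads per kilobase. In MDAMB231 the sum was 912 and 359 and MYC 2095 and 2274, and in SUM159 the sum was 1899 and 1312 and MYC 2675 and 2493. The sum includes MXD3, whose values may hold PRELID1 reads. MXD4 made up 27.2% and 24.7% of the sum in HCC1806 with the combination and JQ1, against 6.57% and 6.42% with GSK2801 and DMSO, 60.5% and 57.8%, against 26.0% and 27.2% in MDAMB231, and 69.1% and 72.1%, against 63.7% and 66.5% in SUM159. These are RNA levels, and no protein was measured.

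MLX, the alternative partner (chromosome 17, 42567068 to 42573239), fell with JQ1 in every line. In HCC1806 it read 633 with the combination and 758 with JQ1, against 1112 with GSK2801 and 1173 with DMSO. In SUM159 it read 1580 and 1525, against 1952 and 1977, and in MDAMB231 2113 and 2085, against 3199 and 3410. No line showed overlap between libraries with and without JQ1. The change was -0.57 ± 0.12 with JQ1 (limma adjusted p = 0.0105), -0.63 ± 0.12 with the combination (limma adjusted p = 0.00406) and -0.57 ± 0.12 for the combination against GSK2801 (limma adjusted p = 0.00802). The call with JQ1 was lost without MDAMB231 (-0.50, limma adjusted p = 0.104), without its JQ1 library (-0.52, limma adjusted p = 0.0536) and without HCC1806 (-0.54, limma adjusted p = 0.0785). MLX shares exon sequence with PSMC3IP on the opposite strand, which averaged 256 scaled reads and did not pass with JQ1 (-0.25).

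Of the other network genes, 4 of 5 were tested and 1 rose with JQ1, MLXIP, the MondoA gene and an MLX partner, where 9.52% of all genes tested rose. That call was lost without SUM159, without MDAMB231, without HCC1806 and with only the libraries compared. MLXIP read 3932 and 3818 in HCC1806 with the combination and JQ1, against 2771 and 2949 with GSK2801 and DMSO, 3593 and 3391, against 2843 and 2806 in SUM159, and 6804 and 5344, against 4029 and 3854 in MDAMB231. Its change was 0.37 ± 0.10 with JQ1 (limma adjusted p = 0.0323) and 0.53 ± 0.10 with the combination (limma adjusted p = 0.00486). MYCL, a MYC paralogue, rose with the combination (1.35 ± 0.31, limma adjusted p = 0.0106) from a low level, with 161 scaled reads in HCC1806, against 50.2 with DMSO, and it missed the threshold with JQ1 alone (0.93 ± 0.31, limma adjusted p = 0.0622). With the combination 2 genes of this list rose, where 15% of all genes tested did, and none rose with only the libraries compared. MGA (0.11 with JQ1) and MLXIPL (-0.24) did not pass, although MLXIPL read 128 and 24.4 in SUM159 with the combination and JQ1, against 391 and 353 with GSK2801 and DMSO. MYCN stayed at or below 5.69 scaled reads and was not tested.

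MondoA and ChREBP act with MLX at carbohydrate response elements, and of their 5 listed targets 4 were tested. With JQ1 3 rose and 1 fell, where 9.52% of all genes tested rose and 13.1% fell. Of these 4 calls none was left without SUM159, 1 rise was left without MDAMB231 or with only the libraries compared, and 2 rises were left without HCC1806. TXNIP, which restrains glucose uptake, read 38596 and 47587 in SUM159 with the combination and JQ1, against 10382 and 7794 with GSK2801 and DMSO. In MDAMB231 it read 46043 and 46900, against 4964 and 4295, and in HCC1806 2332 and 2783, against 1001 and 961. TXNIP rose by 2.53 ± 0.39 with JQ1 (limma adjusted p = 0.00346) and ARRDC4, its arrestin-family relative, by 1.92 ± 0.42 (limma adjusted p = 0.0124). KLF10 rose by 0.38 and HK2, a hexokinase gene that is also on the list of MYC targets, fell by 1.25 on the log2 scale. The effect of JQ1 was smaller in HCC1806 than in the mean of the others for TXNIP (-1.42) and ARRDC4 (-1.71) and lower for HK2 (-1.27), and each of these differences passed. In that test 10.6% of all genes tested passed as lower in HCC1806, 14.5% as higher and 25.1% in all. The TXNIP window is shown because it holds a doubled element, CACGAG repeated after any 5 bases. On either strand 2 of the 34943 windows carry it (0.006%). The pattern spells out the letters found in TXNIP, so that share does not gauge how common such elements are. It lies at chr1:145996631-145996687 on the minus strand (GRCh38.p14, RefSeq), with the element in capitals beginning 88 bases before the start.
TXNIP: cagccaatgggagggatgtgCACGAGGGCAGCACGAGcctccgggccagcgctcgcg
ARRDC4 holds CACGTG 210 bases before its start, without the doubled element in its window.

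**Figure D4:**
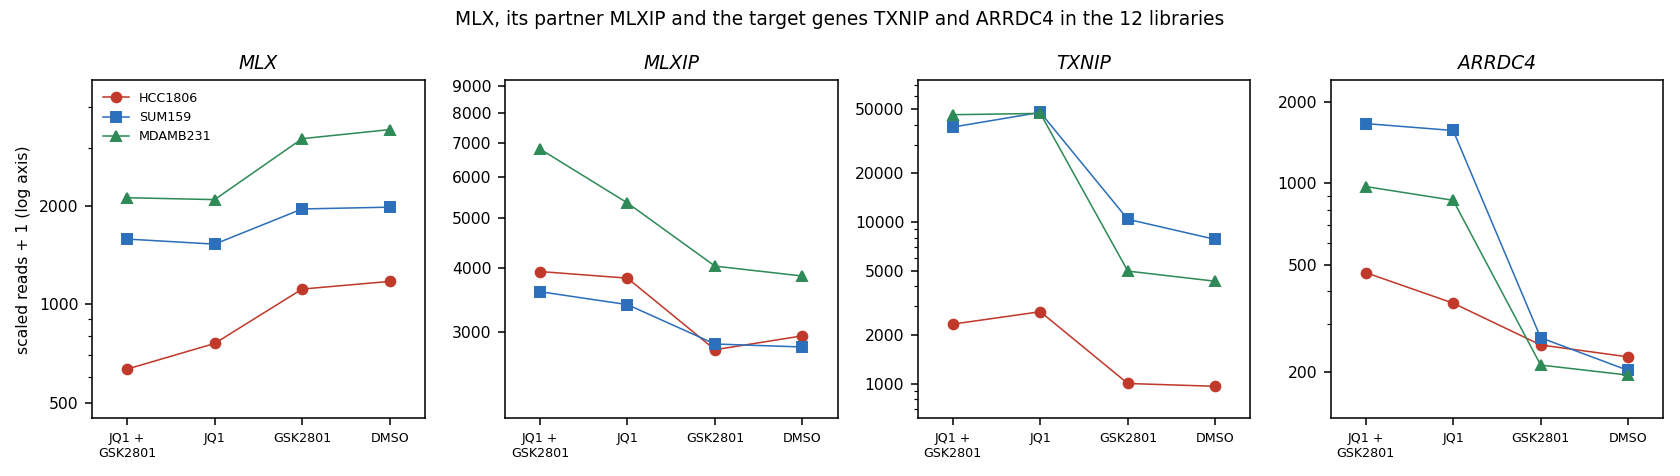
Scaled reads + 1 (log axis, its range set per panel) of MLX, MLXIP, TXNIP and ARRDC4 in the 12 libraries, by treatment from JQ1 plus GSK2801 on the left to DMSO on the right. Each point is 1 library and thin lines only join the libraries of a line. MLX is lower and the other 3 genes are higher with JQ1 in every line, with TXNIP lowest in HCC1806.

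MYC target genes, 68 genes for ribosome assembly, growth and the cell cycle, had medians below 0 with JQ1 in each line. Whether their changes depend on MYC RNA was not tested. Over the lines, 39 of the 68 fell and none rose, with a median log2 change of -0.64 against -0.08 over all genes tested, of which 13.1% fell and 9.52% rose. After TMM rescaling 31 of the 68 fell. Within lines the median ratio of JQ1 over DMSO was -0.70 in HCC1806, -0.27 in SUM159 and -0.85 in MDAMB231, where the medians over all genes tested were 0.01, -0.12 and -0.03. MYC itself changed by -1.64 in HCC1806, 0.10 in SUM159 and -0.12 in MDAMB231 by the same ratio. The largest falls among the targets that passed were those of TERT (-1.45, at no more than 53.4 scaled reads in any library), HK2 (-1.25) and CDC25A (-1.18). With the combination 38 fell, led by TERT (-1.63), MCM5 (-1.52) and NME1 (-1.45), where 19.8% of all genes tested fell. That count was 39 without SUM159, 20 without MDAMB231, where 1 target also rose, 7 without HCC1806 and 11 with only the libraries compared. The difference between HCC1806 and the other lines passed in 10 of the 68, 9 lower and 1 higher in HCC1806, with a median of -0.01, and over all genes tested 10.6% were lower, 14.5% higher and 25.1% passed in all. The count of 39 became 1 when HCC1806 was left out, 11 when MDAMB231 was and 37 when SUM159 was, and 13 when only the DMSO and JQ1 libraries were used.

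**Figure D5:**
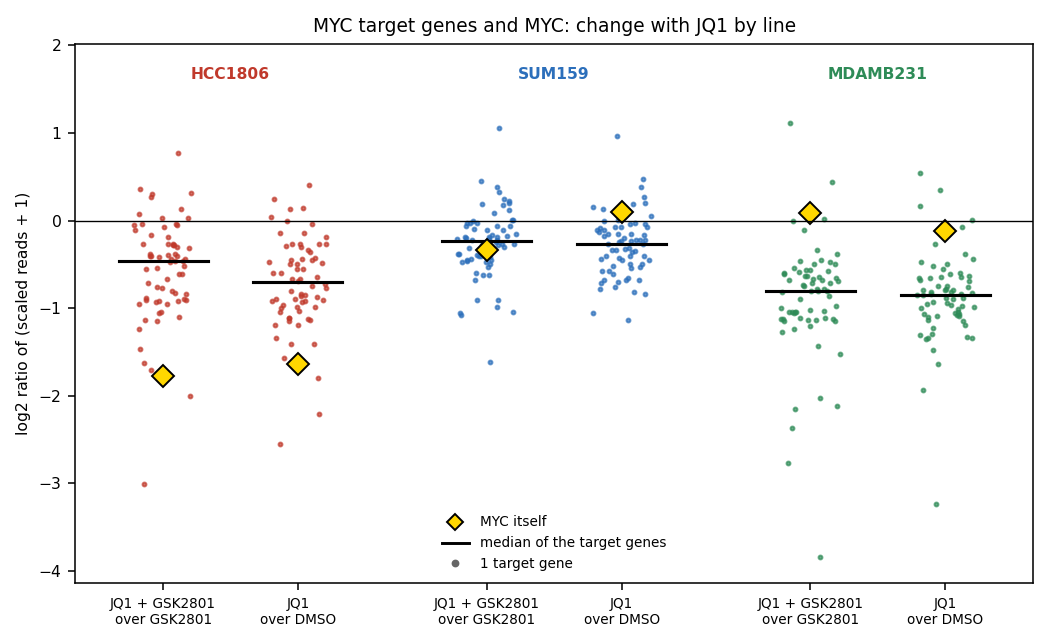
Log2 ratio of (scaled reads + 1) of the 68 MYC target genes (dots) and of MYC (diamond) in each line, for JQ1 plus GSK2801 over GSK2801 and for JQ1 over DMSO. Black bars are medians over the target genes and the horizontal spread of the dots is arbitrary. The medians lie below 0 in each line, while MYC lies below them in HCC1806 and above them in MDAMB231.

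Of 10 genes that MYC is known to repress, 9 were tested and 2 rose with JQ1: CDKN1A, the p21 inhibitor of cyclin-dependent kinases (1.51 ± 0.21, limma adjusted p = 0.00259), and NDRG1 (1.42 ± 0.34, limma adjusted p = 0.0179). CDKN1B (0.24), CDKN1C (-0.18), GADD45A (0.10), GADD45B (0.18), NDRG2 (-0.80), GAS1 (0.55) and DDIT3 (-0.34) did not pass, and CDKN2B was below the filter. Over all genes tested 9.52% rose and 13.1% fell, and 1 gene of this list rose when any 1 line was left out. Among 17 partner repressors and MYC cofactors 3 fell with JQ1 and none rose: the acetyltransferase gene KAT2A (-0.79) and the ATPase genes RUVBL2 (-0.54) and RUVBL1 (-0.51). The count of 3 was 1 without SUM159 or MDAMB231 and 0 without HCC1806 or with only the libraries compared. Of 14 genes for the turnover of MYC protein 2 rose, among them the kinase gene GSK3B (0.47), and 1 fell, the deubiquitinase gene USP36 (-0.48). After TMM or quantile rescaling 4 of the 14 rose and none fell, so the fall of USP36 lost its call, and 1 fell and none rose without SUM159, while none passed without MDAMB231, without HCC1806 or with only the libraries compared. With the combination CDKN1A (1.67) and NDRG1 (1.86) rose, where 15% of all genes tested rose and 19.8% fell. Of the cofactors SIN3A rose (0.43) and 4 fell, led by the kinase gene AURKA (-1.49), KAT2A (-0.94) and the acetyltransferase gene KAT5 (-0.74). Among the turnover genes PPP2R5A (0.80), GSK3B (0.56) and USP28 (0.43) rose, and KIAA1524 (-1.17) and the ubiquitin ligase gene SKP2 (-1.06) fell. With only the libraries compared none of the cofactors or turnover genes passed with the combination. These lists were set beside all genes tested by their counts only.

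GSK2801 alone called none of the 10 members and no other gene (0% of 14232, limma), with 161 genes at an unadjusted p under 0.05. Its member changes ran from -0.08 for MAX to 0.35 for MXI1. Adding GSK2801 to JQ1 called no gene either (0%), with 1031 at an unadjusted p under 0.05. The changes of the members there ran from -1.12 ± 1.06 for CCAT1, whose HCC1806 and MDAMB231 values with the combination were listed at 0, to 0.36 for MXI1. The departure from additivity called none (0%), with 171 at an unadjusted p under 0.05, and MXD3 stood at -0.96 ± 0.34. Without repeat cultures, and at 1 library per line, such a result does not show that GSK2801 left these RNAs level.

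Between lines, 5 of the 10 members differed in their response to JQ1 between HCC1806 and the mean of SUM159 and MDAMB231. MYC, CCAT1, PVT1 and MXI1 were lower and MXD4 higher in HCC1806, where 10.6% of all genes tested passed as lower, 14.5% as higher and 25.1% in all. After TMM rescaling 1832 genes were lower and 1710 higher, against 1513 and 2057 as deposited, with 1 member higher and 4 lower under both. Of the lineage markers tested, 3 of 5 epithelial and 3 of 4 mesenchymal genes also passed in this difference, and their part in it was not tested. For CCAT1 the difference was -4.0 ± 0.74 (limma adjusted p = 0.00940) with 1 added and -3.10 with 5 added. CCAT1 read only 9.04 to 16.2 without JQ1 in MDAMB231, against 505 to 569 in HCC1806, so the fall that could be seen in MDAMB231 was limited. It missed the threshold in each of the 8 fits that left out 1 library of SUM159 or HCC1806 (limma adjusted p = 0.0503 to 0.133). The spread in that fit is each line's departure from additivity and not the spread between cultures.

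As levels over the 4 treatments, HCC1806 was lower than the mean of SUM159 and MDAMB231 in 7 of the 10 members and higher in none, where 35.5% of all genes tested were lower, 37.2% higher and 72.6% passed in all. The 7 were MXD4 (-3.73), PVT1 (-2.41), MXI1 (-1.44), MLX (-1.27), MXD1 (-0.83), MYC (-0.75) and MAX (-0.56). In libraries without JQ1 MYC did not differ clearly (0.07, limma adjusted p = 0.143) and CCAT1 was higher in HCC1806 than that mean (0.79, limma adjusted p = 0.0186). The sign for MYC and CCAT1 thus depends on the libraries with JQ1. The mean joins unlike lines: without JQ1 CCAT1 read 505 to 569 in HCC1806, 6899 to 7855 in SUM159 and 9.04 to 16.2 in MDAMB231. PVT1 without JQ1 read 336 to 349 in HCC1806, above MDAMB231 (271 to 287) and below SUM159 (3946 to 4212). SUM159 was higher than MDAMB231 in 6 members and lower in 2, where 32% and 28.5% of all genes tested were higher and lower and 60.4% passed in all. CCAT1 (8.10), PVT1 (3.59), MXD4 (2.04), MXD3 (1.05), MXD1 (1.03) and MNT (0.44) were higher in SUM159, and MAX (-0.61) and MLX (-0.59) were lower. MYC differed by 0.10 ± 0.33 between SUM159 and MDAMB231 (limma adjusted p = 0.808). In these level comparisons the 4 libraries of a line are 4 treatments and not repeat cultures. The p-values here measure how far a line difference varied between treatments.

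Over the 12 libraries, with each line's mean removed, the values of CCAT1 and PVT1 had a Pearson correlation of 0.91, MYC and PVT1 one of 0.86, MYC and CCAT1 one of 0.78, and MXD4 and MLX one of -0.95. These are descriptions, since the libraries share lines and treatments. Values were not scaled within lines, so a line with larger changes weighs more, which for MYC is HCC1806. In MDAMB231 MYC was highest with the combination (8432), where PVT1 was lowest (243), while in SUM159 both were lowest with the combination. The lists of genes below carry the same limit. By the same correlation over 14231 other genes, those most like MYC were CEACAM6 (0.977), GPC3 (0.969), ANO1-AS1 (0.968), ATG16L1 (0.968) and MFSD14B (0.966). Those most like CCAT1 were EBP (0.99), ADAT2 (0.988), ALDH1B1 (0.988), SH3RF2 (0.986) and RCHY1 (0.985). Those most like MXD4 were PNRC1 (0.992), LGALS3 (0.991), CAST (0.991), MYO9A (0.99) and TP53INP1 (0.987).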

How the data were processed

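Per the labels' protocols, RNA came from cell line cultures after 72 h of treatment. Per the submitters' processing notes, reads were processed with STAR 2.4, Salmon 0.60 and the hg38 build, and the gene annotation is not given in the sources used here. The labels name both a stranded and an unstranded library kit, so strand is open. Each deposited file gave 1 signal value per gene, taken as estimated reads that the authors scaled by 1 factor per library, since 67.1% to 69.2% of values were whole multiples of 1 step (tolerance 0.02) and the 75th percentile of values above 0 was 1663.93 in every library. No counting interval was computed. Of 28539 entries, 27 had symbols turned into dates and were left out.

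The log2(value + 1) values entered limma 3.58.1 (R 4.3.3) with a variance trend, for genes with a mean of at least 10, with treatment and line as terms. A count model, meant for raw reads, was not used because the values are scaled. Lines pair the libraries: replicate 1 is SUM159, 2 MDAMB231 and 3 HCC1806, and libraries of 1 line correlated at 0.935 to 0.993, those of different lines at 0.685 to 0.810. A further fit gave each line its own effects of JQ1 and GSK2801. JQ1 and combination libraries share their line's JQ1 effect, so p-values of contrasts with JQ1 may be too small where that effect differs between lines. Alternatives were another added constant, other filters, trimmed-mean (TMM) and quantile scaling, no variance trend, no line term, only the libraries compared, and leaving out lines and libraries. The fits were tested on simulated data. Named genes are all members, all measured genes of lists of 10 or fewer genes, and of longer lists up to 3 risers and 3 fallers with the largest called change per treatment comparison. The result of 1 listed gene is not reported here. The members and lists were chosen with earlier results of these data known. Promoter sequences come from RefSeq on GRCh38.p14.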

Additional observations from a re-analysis of the deposited data

Results flagged for a closer look

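The effect of JQ1 was taken as the mean of that with and that without GSK2801. By the test in limma it differed between HCC1806 and the mean of SUM159 and MDAMB231 in 5 members. Over all genes tested 25.1% passed in that test. The calls of CCAT1, PVT1, MXI1 and MXD4 were lost in some fits that left out 1 library, and that of MYC in none. The log2 difference was -1.64 for MYC, -4.0 for CCAT1, -1.54 for PVT1, -1.29 for MXI1 and 0.69 for MXD4. CCAT1 read at most 16.2 scaled reads in MDAMB231, so the fall that could be seen there was limited. MYC was 3.26-fold lower with JQ1 in HCC1806. In SUM159 and MDAMB231 its mean log2 effects were -0.12 and -0.01, and libraries with and without JQ1 overlapped, so no direction was shown there. For MXI1 the directions were opposite, with a log2 effect of -0.82 in HCC1806 and 0.87 in MDAMB231. For MXD4 the effect was 2.27 in HCC1806, 0.52 in SUM159 and 2.65 in MDAMB231, so SUM159 stood apart. Line, JQ1 dose and medium cannot be told apart in these differences.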

How the results depend on the processing

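With no replicate block the members that passed were 0 with JQ1, against 5 as reported, 0 with the combination against DMSO, against 4, and 0 with the combination against GSK2801, against 4, and over all genes 0, 41 and 3 passed, against 3223, 4959 and 4132. With only the libraries compared 2, 1 and 1 members and 755, 1012 and 300 genes passed. When 1 line or 1 library was left out, the members that passed ranged from 0 to 3 with JQ1, 2 to 5 with the combination against DMSO, 1 to 4 with the combination against GSK2801, and 1 to 5 for the difference in the JQ1 effect between HCC1806 and the others, 6 to 7 for HCC1806 against the others and 7 to 8 for SUM159 against MDAMB231. Over all genes these ranges were 402 to 2191, 2666 to 4163, 1647 to 3358 and, of 3570, 371 to 3147 for the difference in the JQ1 effect, which was 2156 with no variance trend. In the level comparisons 9569 to 10421 of the 14232 genes tested passed for HCC1806 against the others. For SUM159 against MDAMB231 7755 to 8528 did. As reported the shares were 72.6% and 60.4%, so most genes passed there as well. For the levels of HCC1806 against the others, MYC was 0.0683 and CCAT1 0.787 with only libraries without JQ1, and the MXD4 difference in the JQ1 effect was -0.379 against MDAMB231 alone. Of 1630 values of single genes under other settings 1516 kept their side of the threshold, 105 lost the call and 6 gained one. A further 3 turned direction where a call was involved. The 1516 include values without a call that changed sign, such as MXI1 with JQ1 against DMSO in 5 of 9 leave-out fits. MYC kept its call for the difference in the JQ1 effect in all 8 other settings, at -1.70 to -1.52. The cause of these changes was not tested, and fits that left some libraries out also rested on fewer libraries. With 1 library per line and treatment, small changes in SUM159 and MDAMB231 were not resolvable.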
